A study of Homo sapiens with 4 samples.

Results

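Nuclear receptors are transcription factors that bind DNA through a pair of zinc fingers, and many of them are switched by a small lipid-soluble ligand such as a steroid, a retinoid, thyroid hormone or vitamin D. The family was defined here by a list of 46 gene symbols, and a probe set belonged to it if its annotated symbol was exactly one of these. That rule found 127 probe sets for 39 genes, of 54675 probe sets and 19775 genes in all. The other 7 symbols, NR1D1, NR1H2, NR1H4, NR1I2, HNF4A, NR2F2 and NR0B1, had no probe set listed under them alone and were not analysed here.

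The cells were SCP2, a human breast cancer line known as a bone-colonising subline of MDA-MB-231. The 4 groups, with 1 array each, were cells overexpressing DLC1 treated with TGF-beta, cells overexpressing DLC1 without it, vector control cells treated with TGF-beta and vector control cells without it. All 4 therefore share the line, and the dose and time of TGF-beta, the promoter of the construct and whether the cells were a clone are unstated in the labels. TGF-beta is a cytokine stored in bone matrix. No group has a replicate, so no difference between single arrays below has a replicate check or a p-value. An additive fit of TGF-beta and DLC1 over the 4 arrays, whose 1 residual degree of freedom a gene is the difference between the responses, gives p-values for the average effects and no test of that difference.

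The values are intensities on a linear scale in arbitrary units, with a median of 0.38 to 0.39 on each array. A gene was read from its brightest probe set and kept if at least 1 of its 4 intensities was 0.38 or more, which is the median over all sets and arrays. Of the 39 genes 27 were kept, and all 27 also pass with the mean of their 4 values in place of the highest. A gene was said to have risen or fallen if its log2 difference was 1 or more in size, which is 2-fold. The DLC1 transcript does not settle the labels. Its brightest probe set was 1.45-fold higher with TGF-beta and 1.91-fold higher without it, while the next, 224822_at, was lower, at log2 differences of -0.51 and -0.31, so the text speaks of DLC1-labelled arrays. The dim set 220512_at, which reached 0.38 on the treated vector array alone, was also lower, at -1.11 with TGF-beta and -0.53 without it. The TGF-beta labels fit the transcripts in that all 6 kept genes of a list of TGF-beta targets rose with TGF-beta in both backgrounds. All 7 markers listed for mesenchymal-like breast cancer cells, the keratins KRT7 and KRT18 among them, were kept, as were 13136 of all 19775 genes. Of 8 luminal markers CDH1, FOXA1, PGR and TFF1 were under the filter and 4 were kept. Over the arrays KRT19 read 11.21 to 16.56, EPCAM 5.76 to 7.45, GATA3 from 3 to 4.59 and ESR1 0.39 to 0.46. The summed intensity of the leukocyte markers was 1.75 with TGF-beta and 2.23 without it in the DLC1-labelled arrays. In the vector arrays it was 2.02 and 2.60. Of these markers PTPRC and CD3E were under the filter, while CD14 read 1.08 to 1.67 and LYZ 0.17 to 0.45 over the arrays.

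Receptors of this family act as single proteins, as pairs of the same receptor or as pairs with a retinoid X receptor, and without ligand several of them hold repressor complexes on DNA. In breast cancer the oestrogen and progesterone receptors are best known, as the proteins by which luminal tumours are classed. Retinoic acid receptor beta, the thyroid hormone receptors and the vitamin D receptor are known as restraints on epithelial growth. The glucocorticoid and mineralocorticoid receptors bind adrenal steroids, and the NR4A genes are induced quickly by many signals and need no ligand.

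Stretches of 250 bases before a transcription start are printed for 3 members, THRB and NR3C2 because the differences with TGF-beta turn on them and RARB because it carries a known receptor site. They come from RefSeq on GRCh38.p14 and are given 5′ to 3′ along the gene. Of the 46 symbols 41 had at least 1 such window. Capitals mark every CAGAC on either strand, the core of the box bound by SMAD proteins, and in RARB the match to GGTTCA, any 5 bases and AGTTCA, the direct repeat bound by a retinoic acid receptor paired with a retinoid X receptor. No 2 marked matches overlap.
RARB, chr3:25428013-25428262, plus strand: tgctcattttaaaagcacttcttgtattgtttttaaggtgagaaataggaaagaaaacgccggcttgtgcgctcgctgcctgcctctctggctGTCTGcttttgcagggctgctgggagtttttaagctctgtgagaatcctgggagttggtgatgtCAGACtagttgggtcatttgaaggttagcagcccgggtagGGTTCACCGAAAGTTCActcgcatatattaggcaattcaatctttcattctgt
NR3C2, chr4:148445323-148445572, minus strand: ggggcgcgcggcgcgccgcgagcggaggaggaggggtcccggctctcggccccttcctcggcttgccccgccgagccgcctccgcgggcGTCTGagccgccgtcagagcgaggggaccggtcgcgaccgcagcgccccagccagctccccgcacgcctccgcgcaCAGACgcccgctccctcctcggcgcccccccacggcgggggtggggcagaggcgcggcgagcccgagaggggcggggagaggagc
THRB, chr3:24495709-24495958, minus strand: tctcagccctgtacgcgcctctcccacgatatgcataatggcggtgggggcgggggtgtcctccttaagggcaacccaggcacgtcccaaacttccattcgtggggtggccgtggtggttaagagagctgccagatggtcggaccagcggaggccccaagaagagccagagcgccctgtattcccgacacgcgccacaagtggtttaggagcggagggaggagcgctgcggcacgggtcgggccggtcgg

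The RARB window holds the 17-base repeat 53 to 37 bases before the start, and 6 of 35116 windows of the same length over all listed genes hold such a match on either strand, or 0.0171%. It is the known autoregulatory element of this gene, and the other 3 RARB starts have no match. CAGAC occurs 2 times in the RARB window and 2 times in the NR3C2 window, and in neither of the 2 listed THRB windows. Over all listed starts 2 of 4 RARB windows and 1 of 4 NR3C2 windows hold it. A CAGAC was present in 38.0% of all windows and in 38 of the 96 windows of the family, or 39.6%. AGGTCA, the core that many receptors of the family bind, was present in 12.1% of all windows and in 15 of the 96, or 15.6%. The starts used in these cells were not measured, and letters in a window are no sign of binding.

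Positions along the chromosomes tie some members together. On chromosome 3, NR1D2, THRB and RARB follow each other with 0 protein-coding genes between them. On chromosome 17, THRA and NR1D1 overlap, with RARA 5 protein-coding genes further on. NR5A1 and NR6A1 are neighbours on chromosome 9.

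The first question is what TGF-beta does to the receptors in cells with and without added DLC1. THRB, the beta thyroid hormone receptor, and NR3C2, the mineralocorticoid receptor, fell in the vector arrays, and VDR, the vitamin D receptor, rose in the DLC1-labelled arrays. The other kept members stayed within 2-fold in each background. In the DLC1-labelled arrays 1 of 27 kept members rose and 0 fell, 3.70%, where 0.898% of the 13136 kept genes passed 2-fold, 0.792% upwards and 0.107% downwards. In the vector arrays 0 rose and 2 fell, 7.41%, beside 1.9% of kept genes, 1.21% upwards and 0.693% downwards. These shares rest on 1 and 2 genes. Past 1.5-fold were 4 members in the DLC1-labelled arrays, 14.8% beside 3.37% of kept genes, and 5 in the vector arrays, 18.5% beside 6.05%. The kept members passed a filter on their brightest value, and their counts are given as a description. The median difference of the members was -0.04 in the DLC1-labelled arrays and -0.01 in the vector arrays, beside -0.01 and -0.03 over all kept genes. In the additive fit with limma, 0 of the 27 had an adjusted p under 0.05 for TGF-beta, beside 0.327% of kept genes. An unadjusted p under 0.05 was found for 7 of the 27, where 19.2% of all kept genes had one. The average log2 difference was -1.42 ± 0.26 (SE) for THRB with adjusted p = 0.146, -0.98 ± 0.17 for NR3C2 with adjusted p = 0.139, and 0.83 ± 0.13 for VDR with adjusted p = 0.128.

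THRB read 1.22 with TGF-beta and 2.33 without it in the DLC1-labelled arrays, and 0.85 with TGF-beta and 3.18 without it in the vector arrays. Both treated arrays lay below both untreated ones. The log2 difference was -0.93 in the DLC1-labelled arrays, short of 2-fold, and -1.90 in the vector arrays, a 3.74-fold fall that is the fifth lowest among 13136 kept genes. The probe sets of THRB parted. In 229657_at the values were 0.25 with TGF-beta and 0.31 without in the DLC1-labelled arrays, and 0.20 and 0.77 in the vector arrays, so 3 of its 4 values are dim and the vector array without TGF-beta stands above the rest. The set 207044_at stayed between 0.49 and 0.57 on all 4 arrays.

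THRA, the alpha thyroid hormone receptor, showed no such pattern. It read 0.50 with TGF-beta and 0.54 without it in the DLC1-labelled arrays, and 0.61 and 0.62 in the vector arrays. A further 3 probe sets are annotated to both NR1D1 and THRA, whose genes overlap, and cannot be given to either. The brightest of them, 31637_s_at, read 3.46 and 3.59 with and without TGF-beta in the DLC1-labelled arrays and 3.68 and 4.03 in the vector arrays.

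NR3C2, measured by a single probe set, read 8.78 with TGF-beta and 14.08 without it in the DLC1-labelled arrays, and 3.62 and 8.83 in the vector arrays. Treated was below untreated in each background, but the treated DLC1-labelled array and the untreated vector array nearly coincided. The log2 differences with TGF-beta were -0.68 in the DLC1-labelled arrays and -1.29 in the vector arrays, where the fall was 2.44-fold. NR3C1, the glucocorticoid receptor, is the closest relative of NR3C2. Its values of 33.12 with TGF-beta and 36.00 without in the DLC1-labelled arrays, and of 32.11 and 34.47 in the vector arrays, lay close together. All 5 probe sets of NR3C1 stayed within 2-fold in each comparison. The log2 ratio of the 5′ over the 3′ control set of ACTB, a sign of RNA quality, was 0.08 higher with TGF-beta in the DLC1-labelled arrays and 0.43 higher in the vector arrays. For GAPDH the corresponding values were -0.04 and 0.02. The ACTB ratio of DLC1-labelled and vector arrays differed by -0.20 with TGF-beta and 0.15 without it. The part of RNA quality in the differences was not tested.

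**Figure D1:**
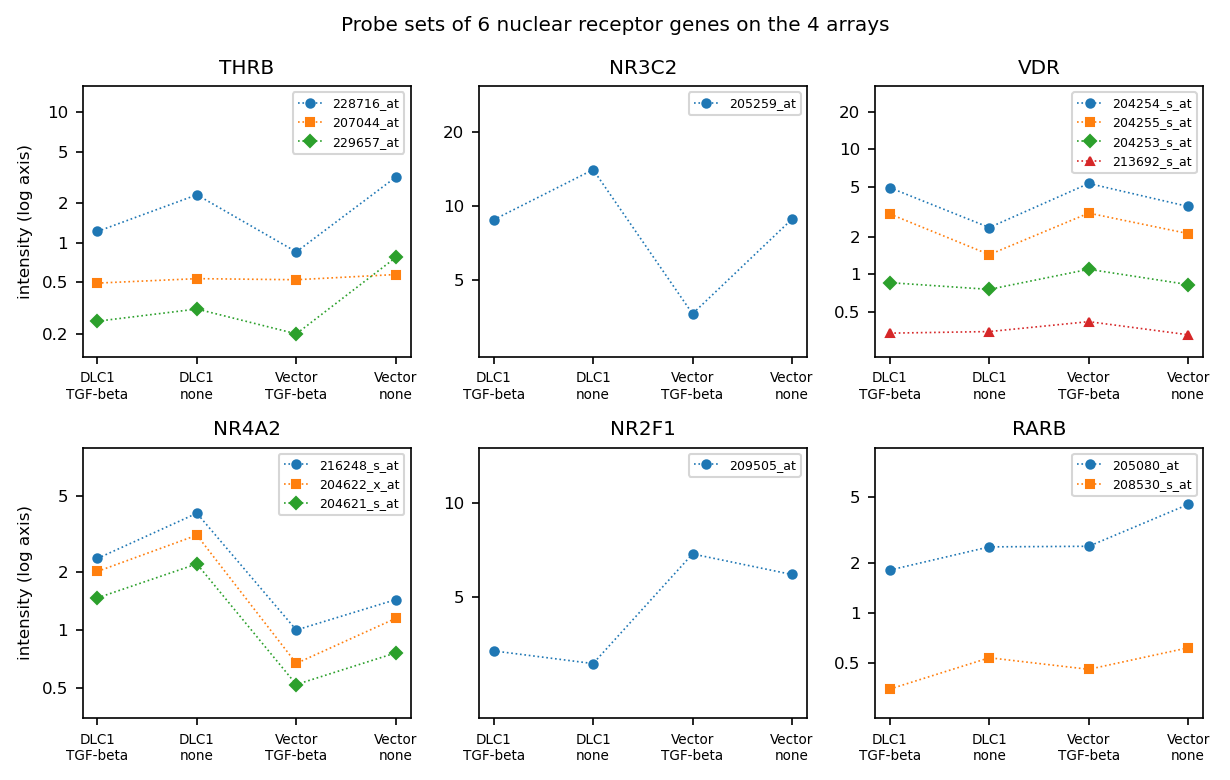
Intensity on a log axis of the probe sets that reached the filter, for 6 genes (panels) on the 4 arrays, 1 per group. Each marker is 1 probe set on 1 array and dotted lines join a set. All 3 sets of NR4A2 run in parallel, while 207044_at of THRB stays flat between 0.49 and 0.57.

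VDR binds the active form of vitamin D and is studied in bone because vitamin D governs calcium handling. Its probe set 204254_s_at read 4.93 with TGF-beta and 2.37 without it in the DLC1-labelled arrays, and 5.33 and 3.49 in the vector arrays. Both treated arrays lay above both untreated ones. The log2 differences were 1.06 in the DLC1-labelled arrays, a 2.08-fold rise, and 0.61 in the vector arrays. The set 204255_s_at gave 1.08 and 0.54, while 204253_s_at gave 0.18 and 0.41 and 213692_s_at gave -0.04 and 0.35. As the mean of its 4 sets VDR gave 0.57 in the DLC1-labelled arrays, short of 2-fold. With each array centred on the median level of 11 housekeeping genes it gave 0.87, also short of 2-fold. The gene at that median was ACTB in both DLC1-labelled arrays, and ACTB itself gave 0.18 with TGF-beta. The median of the 11 genes' own differences there was -0.03. That centring moved the median of all kept genes to -0.19, and relative to it VDR stood at 1.07 and THRB at -0.92.

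RARB, retinoic acid receptor beta, was within 2-fold in both backgrounds. It read 1.82 with TGF-beta and 2.51 without it in the DLC1-labelled arrays, and 2.53 and 4.52 in the vector arrays. The vector array without TGF-beta was the highest of the 4, and the log2 differences were -0.46 and -0.84. The dimmer set 208530_s_at gave -0.63 and -0.43. RARA and RARG, the other retinoic acid receptors, differed by 0.19 and 0.05 with TGF-beta in the DLC1-labelled arrays, and by 0 and -0.11 in the vector arrays. Of the neighbours on chromosome 3, NR1D2, which encodes the clock repressor REV-ERB beta, gave -0.10 and 0.02, so THRB and RARB had values below 0 in both backgrounds and NR1D2 had not.

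The peroxisome proliferator-activated receptors, which sense fatty acids, went different ways with TGF-beta without passing 2-fold. PPARG, the adipogenic member, read 1.78 with TGF-beta and 1.93 without it in the DLC1-labelled arrays, and 2.29 and 3.79 in the vector arrays. The vector array without TGF-beta again stood above the rest, at log2 differences of -0.12 and -0.73. PPARD read 13.83 and 11.18 with and without TGF-beta in the DLC1-labelled arrays, and 14.71 and 9.88 in the vector arrays. Its differences of 0.31 and 0.57 are both above 0. So are those of its sets 242218_at, at 0.43 and 0.68, and 208044_s_at, at 0.22 and 0.43. The dim set 210636_at of PPARD gave 0.18 and 0. PPARA gave 0.02 and 0.08.

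**Figure D2:**
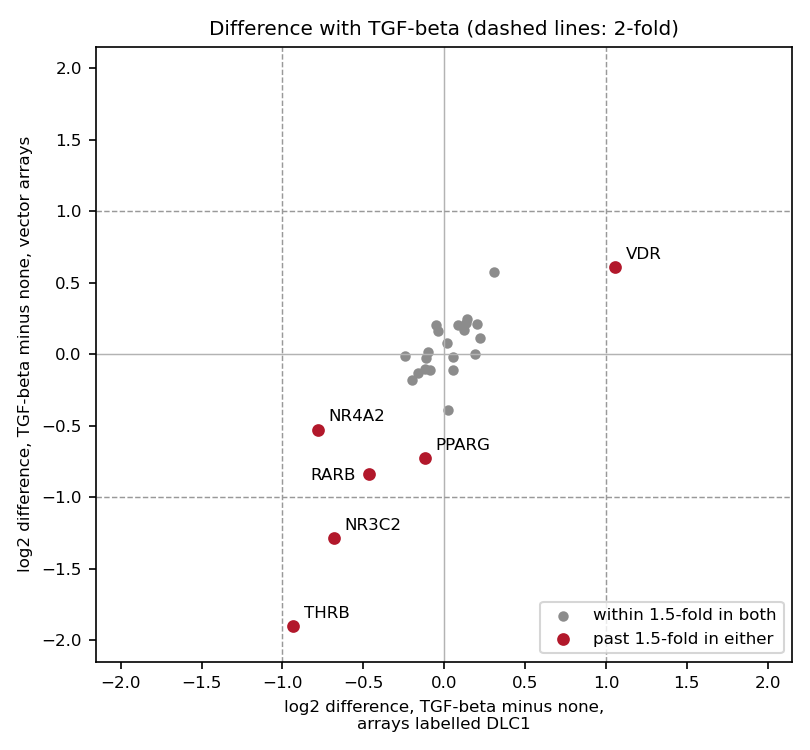
Log2 difference with TGF-beta of the 27 kept members in the DLC1-labelled arrays (x axis) and in the vector arrays (y axis), which share no array. Points are genes and dashed lines mark 2-fold. THRB lies at -0.93 and -1.90, NR3C2 at -0.68 and -1.29, and VDR at 1.06 and 0.61.

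The comparison of DLC1-labelled with vector arrays asks what added DLC1 changes. It uses the same 4 arrays as the differences with TGF-beta, so the values of both comparisons are not independent. NR4A2, an orphan receptor known from dopamine neurons and as an immediate early gene, rose in both states, NR3C2 rose with TGF-beta, and NR2F1, which encodes the orphan receptor COUP-TFI, fell with TGF-beta. With TGF-beta 2 of 27 kept members rose and 1 fell, 11.1%, where 3.11% of kept genes passed 2-fold, 1.46% upwards and 1.64% downwards. Without TGF-beta 1 rose and 0 fell, 3.70%, beside 3.97% of kept genes, 1.63% upwards and 2.34% downwards, so this share is near the background and is no result about the family. At 1.5-fold the shares were 11.1% with TGF-beta and 18.5% without it, beside 12.6% and 14.7% of kept genes. Medians of the members were 0.04 and 0.06, beside -0.02 and -0.03 over all kept genes. In the additive fit with limma, 5 of the 27 had an adjusted p under 0.05 for DLC1, 18.5%, where 26.4% of kept genes did, so the share of members was not above the background. NR4A2, at an average of 1.37 ± 0.09 (SE), and NR2F1, at -0.99 ± 0.07, both had an adjusted p of 0.0188. The others were NR3C2 at 0.98 ± 0.17, PPARA at 0.39 ± 0.07 and RARB at -0.66 ± 0.12, with adjusted p-values of 0.0351, 0.0341 and 0.0358. These p-values measure how alike the treated and untreated pairs were, not the spread between cultures.

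NR4A2 read 2.36 in the DLC1-labelled array and 1.0 in the vector array with TGF-beta, and 4.06 and 1.44 without it. Both DLC1-labelled arrays lay above both vector arrays. The log2 differences were 1.24 with TGF-beta, a 2.36-fold rise, and 1.5 without it, a 2.82-fold rise. Its other sets had like differences, 204622_x_at of 1.59 and 1.44 and 204621_s_at of 1.5 and 1.54. With TGF-beta against none NR4A2 gave -0.78 in the DLC1-labelled arrays and -0.53 in the vector arrays, both within 2-fold.

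The relatives of NR4A2 did not show that rise. NR4A1 read 1.04 in the DLC1-labelled array and 1.07 in the vector array with TGF-beta, and 1.23 and 1.08 without it. NR4A3 lay under the filter, between 0.28 and 0.32 in its brightest set. Of 8 kept immediate early genes from a list of 11, 0 passed 2-fold between DLC1-labelled and vector arrays in either state, and their medians were -0.47 with TGF-beta and -0.31 without it. EGR1, an early growth response factor, gave -0.82 and -0.95, and FOS gave -0.53 and -0.79, while ATF3, a stress-induced factor, gave 0.47 and 0.55. With TGF-beta against none, JUNB had a log2 difference of 0.69 in the DLC1-labelled arrays and rose by 1.22 in the vector ones.

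NR3C2 gave a log2 difference of 1.28 between the DLC1-labelled array and the vector array with TGF-beta, a 2.43-fold rise, and of 0.67 without it. The intensities above show that its highest value was in the untreated DLC1-labelled array and its lowest in the treated vector array. NR2F1, also measured by a single probe set, read 3.35 in the DLC1-labelled array and 6.87 in the vector array with TGF-beta, and 3.05 and 5.90 without it. Both DLC1-labelled arrays lay below both vector arrays, at log2 differences of -1.04 with TGF-beta and -0.95 without it, the second short of 2-fold. With TGF-beta against none NR2F1 gave 0.14 in the DLC1-labelled arrays and 0.22 in the vector arrays.

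Other orphan receptors of the same subfamily were within 2-fold. NR2F6 gave -0.19 with TGF-beta and -0.14 without it. NR2C1 and NR2C2, the testicular receptors, gave 0.27 each with TGF-beta, and 0.20 and 0.28 without it. In NR2C1 the set 210530_s_at went the other way, at -0.40 and -0.79, and in NR2C2 the set 206038_s_at gave 0.73 and 0.64.

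PPARG and RARB were lower in the DLC1-labelled arrays without passing 2-fold. PPARG gave -0.36 with TGF-beta and -0.97 without it, and RARB gave -0.48 and -0.85. The dimmer RARB set 208530_s_at gave -0.39 and -0.20. In both PPARG and RARB the untreated vector array was the highest of the 4, and the differences with TGF-beta and with DLC1 share that array. PPARA gave 0.36 and 0.43, and its second bright set 226978_at gave 0.28 and 0.34. Its dimmer sets differed more between the states, with 223438_s_at at 0.22 and 0.05, 244689_at at 0.13 and 0.47 and 206870_at at 0.07 and -0.12. RORA, which encodes a clock activator, was under the filter in its brightest set. Its set 226682_at read 0.38 in the DLC1-labelled array and 0.17 in the vector array with TGF-beta, and 0.32 and 0.18 without it. These are dim values, whose differences of 1.16 and 0.83 are coarse. The set reached the filter on the treated DLC1-labelled array alone.

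**Figure D3:**
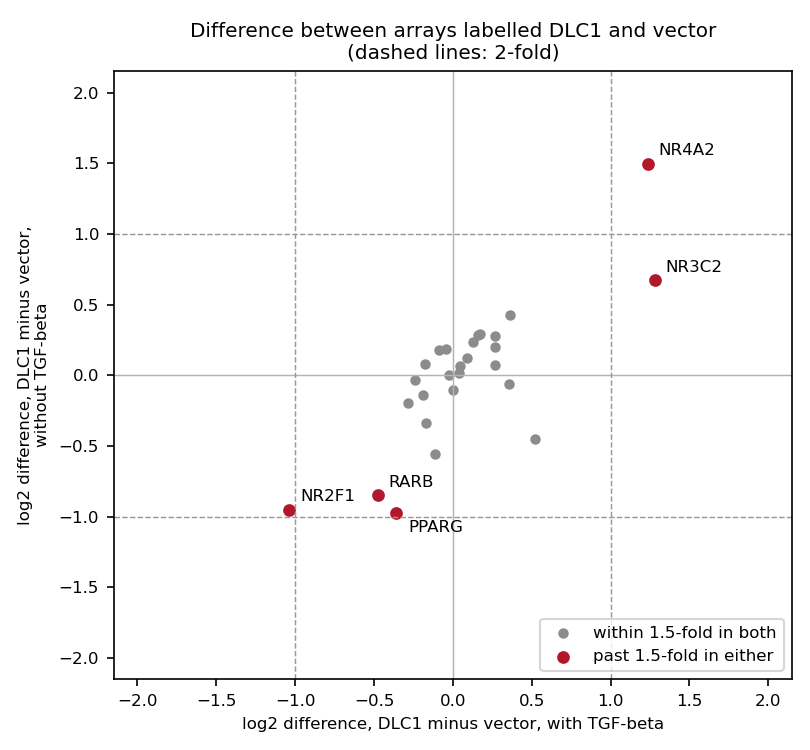
Log2 difference between the DLC1-labelled and vector arrays for the 27 kept members, with TGF-beta (x axis) and without it (y axis). Points are genes and dashed lines mark 2-fold. NR4A2 lies at 1.24 and 1.5, NR3C2 at 1.28 and 0.67, and NR2F1 at -1.04 and -0.95.

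The response to TGF-beta was also set against itself across the backgrounds, DLC1 minus vector, and passed 2-fold in 0 of 27 kept members, beside 0.365% of kept genes. THRB was highest, at 0.97, which ranked 30 among 13136 kept genes, followed by PPARG at 0.61 and NR3C2 at 0.61. These 3 were past 1.5-fold, 11.1% of the members beside 3.08% of kept genes. All 3 had a log2 difference below 0 in both backgrounds, nearer to 0 in the DLC1-labelled arrays. This difference between backgrounds was not tested, since the 4 arrays leave no degree of freedom for it. Counted by probe set, 67 sets of the family reached the filter. With TGF-beta 2 sets of VDR passed 2-fold in the DLC1-labelled arrays, beside 0.773% of 29246 such sets, and 2 sets of THRB and the set of NR3C2 in the vector arrays, beside 1.69%. Between DLC1-labelled and vector arrays 6 sets passed with TGF-beta, beside 3.24%, and 4 without it, beside 4.11%. The 6 were 3 sets of NR4A2, those of NR3C2 and NR2F1 and 226682_at of RORA, and the 4 were 3 sets of NR4A2 and 229657_at of THRB. The RORA set reached the filter on the treated DLC1-labelled array alone, the array that makes its difference, so its place in this count supports nothing. For the difference of the responses that THRB set stood at 1.63, where 0.475% of sets passed 2-fold. It reached the filter on the untreated vector array alone, the array that makes the difference, so it supports nothing here or in the counts above.

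**Figure D4:**
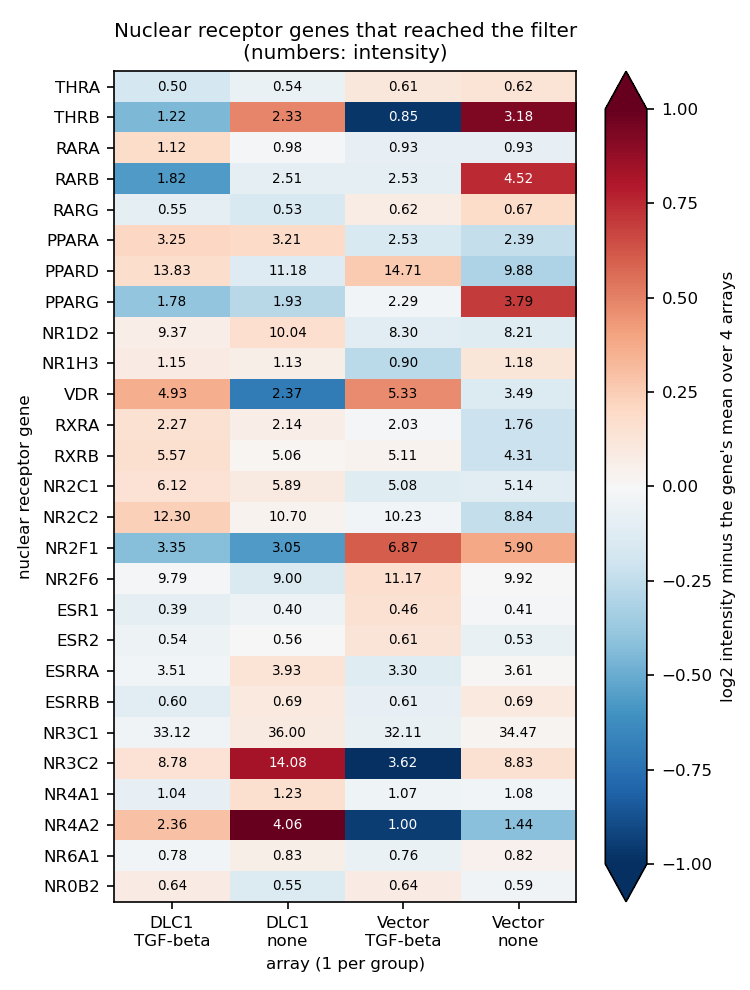
The 27 kept members (rows) on the 4 arrays (columns). Numbers are intensities and colours give the log2 intensity minus the gene's own mean over the arrays, so colours compare arrays within a row only. THRB, NR3C2 and NR4A2 have their lowest value in the treated vector array, at 0.85, 3.62 and 1.0.

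The oestrogen and progesterone receptors were dim on these arrays. The brightest of 9 ESR1 probe sets, for oestrogen receptor alpha, read 0.39 with TGF-beta and 0.40 without in the DLC1-labelled arrays, and 0.46 and 0.41 in the vector arrays. Only 3 of these 9 sets reached 0.38. Values of ESR2, for oestrogen receptor beta, ran from 0.53 to 0.61 in its brightest set, and its other 5 sets did not reach the filter. PGR, the progesterone receptor gene, read 0.09 to 0.11 in both of its sets. ESRRA, an orphan relative that acts on mitochondrial genes, read 3.51 and 3.93 with and without TGF-beta in the DLC1-labelled arrays, and 3.30 and 3.61 in the vector arrays. The arrays of each gene lay within 2-fold of each other.

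Retinoid X receptors, the shared partners of many members, were within 2-fold in every comparison. RXRA read 2.27 and 2.14 with and without TGF-beta in the DLC1-labelled arrays, and 2.03 and 1.76 in the vector arrays. RXRB read 5.57 and 5.06, and 5.11 and 4.31. In both genes the untreated vector array was lowest. NR1H3, the liver X receptor alpha and a sensor of oxidised cholesterol, read 1.15 and 1.13 with and without TGF-beta in the DLC1-labelled arrays, and 0.90 and 1.18 in the vector arrays. The remaining kept genes, NR6A1, NR0B2 and ESRRB, differed by at most 0.22 in size in the 4 comparisons in their brightest sets. The NR6A1 set 228894_at gave 0.56 with TGF-beta and 0.06 without it between DLC1-labelled and vector arrays. With TGF-beta against none it gave 0.12 in the DLC1-labelled arrays and -0.38 in the vector arrays. Under the filter lay RORA, RORB, NR1I3, HNF4G, RXRG, NR2E1, NR2E3, ESRRG, PGR, NR4A3, NR5A1 and NR5A2, with values of 0.09 to 0.32 in the set used.

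Genes that work with the receptors were taken from lists of targets and partners, and each list's counts stand beside the shares of all kept genes given above. Liver X receptor targets were the list with the highest median between DLC1-labelled and vector arrays, at 0.67 with TGF-beta and 0.82 without it over 7 kept genes, NR1H3 included. In each state 2 of the 7 rose and 0 fell. SREBF1, a master factor of lipid synthesis, rose by 1.09 and 1.05, and its dimmer set 1558875_at gave 0.31 and 0.49. MYLIP, which marks the LDL receptor for breakdown, rose by 1.22 with TGF-beta and stood at 0.99 without it. Its set 223130_s_at gave 1.14 and 0.97, while 223129_x_at gave 0.81 and 0.94, 220319_s_at 0.86 and 1.12, and 228097_at 0.73 and 0.87. ABCA1, a cholesterol exporter, stood at 0.67 with TGF-beta and rose by 1.58 without it. Its response to TGF-beta was 0.78 in the DLC1-labelled arrays and a rise of 1.69 in the vector ones. NR1H3 itself gave 0.35 with TGF-beta and -0.06 without it.

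Glucocorticoid receptor targets went both ways between DLC1-labelled and vector arrays. Of 10 kept genes 2 rose and 1 fell in each state, with medians of -0.01 with TGF-beta and -0.15 without it. KLF9, a transcription factor gene that thyroid hormone also induces, rose by 1.85 and 1.89, and TSC22D3, which encodes the leucine zipper protein GILZ, by 1.25 and 1.13. FKBP5, a co-chaperone that restrains the glucocorticoid receptor, fell by 1.09 with TGF-beta and by 1.11 without it, and its set 224856_at fell by 1.03 and 1.10. The KLF9 set 203543_s_at rose by 1.95 and 1.46, and 228474_s_at stayed at 0.39 to 0.40. The TSC22D3 set 207001_x_at gave 0.19 and 0.09. With TGF-beta against none CEBPD alone of the list passed 2-fold, with a difference of -0.74 in the DLC1-labelled arrays and a fall of 1.01 in the vector ones. NR3C1 stayed between 32.11 and 36.00 throughout.

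Of 7 kept vitamin D receptor targets 0 passed 2-fold with TGF-beta in either background, with medians of -0.04 in the DLC1-labelled arrays and 0.02 in the vector arrays. CYP24A1, which breaks down vitamin D, read 0.22 with TGF-beta and 0.14 without it in the DLC1-labelled arrays, and 0.61 and 0.45 in the vector arrays. Between DLC1-labelled and vector arrays it fell by 1.47 with TGF-beta and by 1.68 without it, and its dim values make these sizes coarse. G0S2, a lipase inhibitor gene, fell by 1.15 and 1.43. CLMN fell by 1.10 with TGF-beta and stood at -0.60 without it, and its set 221042_s_at gave -1.12 and -1.22 while 225757_s_at gave -0.14 and -0.38. In all, 3 of 7 were past 2-fold lower with TGF-beta and 2 without it, with medians of -0.21 and -0.16. CYP24A1 and CLMN reached the filter on the vector arrays alone, so their falls came with being kept and the count supports no direction of the list.

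Retinoic acid receptor targets numbered 6 kept genes, RARB among them. Of these 0 passed 2-fold between DLC1-labelled and vector arrays, with medians of -0.07 with TGF-beta and 0.09 without it. CYP26B1, which breaks down retinoic acid, responded to TGF-beta with 0.40 in the DLC1-labelled arrays and with a rise of 1.06 in the vector ones. Of 19 kept genes of ligand metabolism and transport, 3 fell and 0 rose between DLC1-labelled and vector arrays in each state, with medians of -0.24 with TGF-beta and -0.29 without it. They were CYP24A1 and the fatty acid carriers FABP4, at -2.01 with TGF-beta and -2.22 without it, and FABP5, at -1.10 and -1.05. As CYP24A1 reached the filter on the vector arrays alone, its fall came with being kept and adds nothing to this count. FABP4 is also a known target of PPARG and was the only one of 7 kept peroxisome proliferator-activated receptor targets to pass 2-fold there, where the list's medians were -0.13 with TGF-beta and 0.12 without it. ANGPTL4, of the same list, had a response to TGF-beta of 0.68 in the DLC1-labelled arrays and rose by 1.29 in the vector ones. HSD17B2, which inactivates oestradiol, had a response to TGF-beta of -0.62 in the DLC1-labelled arrays and fell by 1.29 in the vector ones.

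Oestrogen receptor targets had 5 kept genes of 10. Between DLC1-labelled and vector arrays 0 of the 5 passed 2-fold with TGF-beta and 2 without it, where XBP1, a factor of the unfolded protein response, rose by 1.05 and MYB fell by 1.5. With TGF-beta these stood at 0.77 and -0.50, and the list's median was -0.08 in each state. The list of 9 kept oestrogen-related receptor targets held 1 gene past 2-fold between DLC1-labelled and vector arrays, the osteopontin gene SPP1, which read 0.14 in the DLC1-labelled array and 2.43 in the vector array with TGF-beta, and 0.17 and 1.96 without it. SPP1 too reached the filter on the vector arrays alone. That list's medians were -0.12 with TGF-beta and 0.02 without it. None of the 3 kept thyroid hormone receptor targets passed 2-fold with TGF-beta in either background, where THRB gave the values above. They were KLF9 at 0.37 in the DLC1-labelled arrays and 0.41 in the vector arrays, DIO3 at -0.17 and 0.13 and HR at -0.20 in each. KLF9 alone of these 3 passed 2-fold between DLC1-labelled and vector arrays.

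The clock partners of NR1D2 and RORA had 12 kept genes. With TGF-beta 0 of them passed 2-fold in the DLC1-labelled arrays and 2 rose in the vector ones. BHLHE40 had values of 0.78 and 1.85 in these backgrounds, and BMAL1 had 0.74 and 1.19. The list's medians were -0.02 and -0.09. NR1D2 read 9.37 and 10.04 with and without TGF-beta in the DLC1-labelled arrays, and 8.30 and 8.21 in the vector arrays. Its second set 209750_at gave 0.31 with TGF-beta and 0.66 without it between DLC1-labelled and vector arrays.

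Few coregulators passed 2-fold. Of 10 kept corepressors, NRIP1, TBL1X and HDAC3 among them, 0 passed 2-fold in any of the 4 comparisons. Their medians lay between -0.06 and 0.04. Of 16 kept coactivators 1 did so in each of 2 comparisons, with medians between -0.04 and 0.06 over the 4. PPARGC1A, a coactivator of mitochondrial programmes, had a response to TGF-beta of -0.20 in the DLC1-labelled arrays and fell by 1.10 in the vector ones. PNRC1, between DLC1-labelled and vector arrays, stood at 0.83 with TGF-beta and rose by 1.01 without it. Among 9 kept steroid receptor chaperones only FKBP5 passed 2-fold, and the medians between DLC1-labelled and vector arrays were -0.21 with TGF-beta and -0.27 without it. The chaperone HSP90AA1 read 138.9 and 144.2 with and without TGF-beta in the DLC1-labelled arrays, and 145.1 and 159.9 in the vector arrays.

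**Figure D5:**
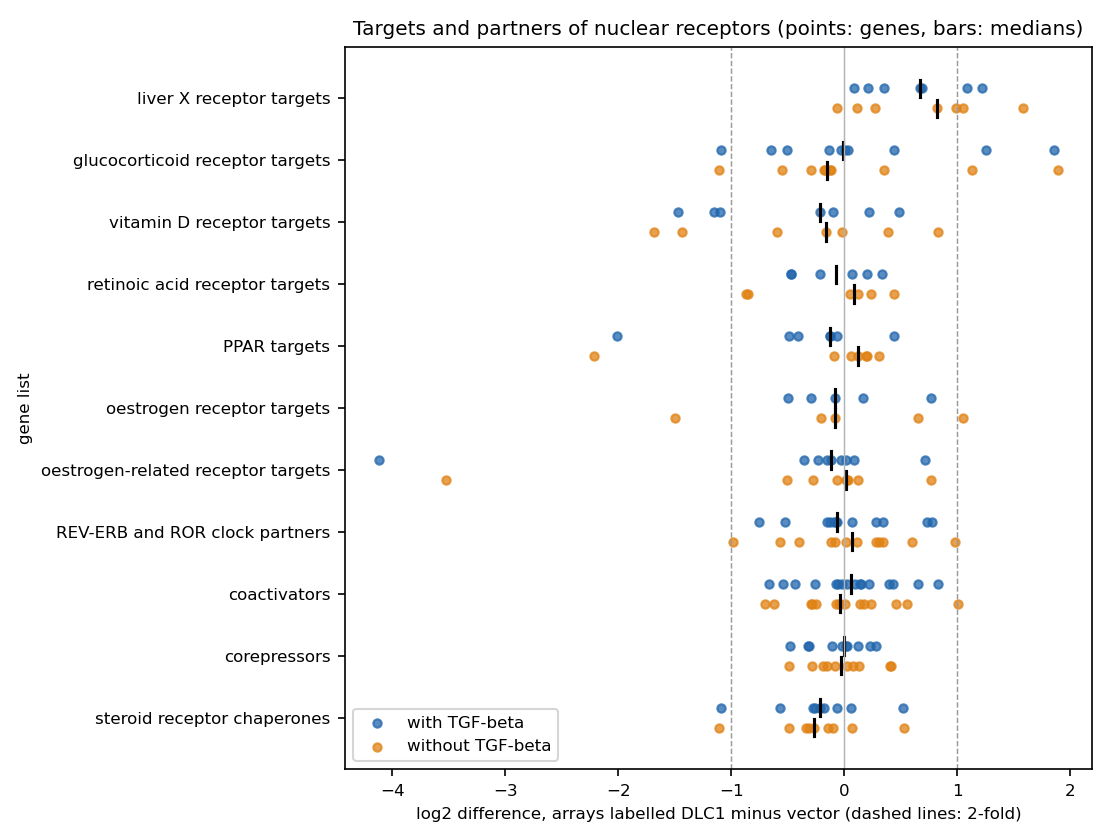
Log2 difference between DLC1-labelled and vector arrays (x axis) of the kept genes of 11 lists of receptor targets and partners, with TGF-beta (blue) and without it (orange). Each point is a gene, black bars are list medians and dashed lines mark 2-fold. Liver X receptor targets have medians of 0.67 and 0.82.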

How the data were processed

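Messenger RNA was measured on 1 array for each of 4 groups, taken from the labels alone. The intensities deposited by the authors are linear, positive and rounded to 2 decimals, from 0.05 to 265.6, and RMA is named per the submitters' processing notes with no version. RMA usually returns log2 values, and the divisor of this linear scale is not given in the sources used here. RMA as usually run equalises the arrays' distributions, and then a change common to most genes cannot be seen.

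The supplied platform annotation gave the names, and in it 41097 probe sets have exactly 1 symbol and 1801 several. Gene identifiers of 41043 matched the current symbol table. The brightest probe set by mean stood for a gene, and the difference was log2 of one intensity minus log2 of the other. Genes were named by rule, as every member, DLC1 and up to 4 genes per list and comparison past 2-fold with the largest size. Other genes of the lists, chosen after their values were seen, are EGR1, FOS, DIO3, HR, ATF3, NRIP1, TBL1X, HDAC3 and HSP90AA1. The same holds for KRT18, EPCAM, KRT19, GATA3, CD14, ACTB, PGK1 and TFRC. The members and lists were chosen with earlier results of these data known. Differences between single arrays have no test. An additive fit of TGF-beta and DLC1 with limma, Benjamini-Hochberg adjusted over all kept genes, was added after the data were seen, and it takes both effects as the same in either state. Of the 20 lists, 0 of 11 kept housekeeping genes passed 2-fold in any comparison. Among the marker lists KRT7 of the mesenchymal-like cells rose with TGF-beta in both backgrounds, the dim LYZ of the leukocytes was past 2-fold lower in the DLC1-labelled arrays in both states, and 0 of 4 kept luminal and 0 of 2 kept endothelial and stromal markers passed 2-fold. LYZ reached the filter on the vector arrays alone. The fold rule and the fit were run on simulated data with planted shifts. Those for the fold rule all lay past 2-fold in small noise, and those for the fit were in TGF-beta alone. The runs check the code and say nothing of error rates in these arrays. Alternatives were no filter, a filter on the mean, log2 of the value plus 0.1, housekeeping centring, cyclic loess in limma 3.58.1 (R 4.3.3), the mean of a gene's probe sets, and 1.5-fold. Computation used Python 3.11.15, numpy 2.4.6 and pandas 2.3.3. Precision is limited by having 4 arrays.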

Additional observations from a re-analysis of the deposited data

Results flagged for a closer look

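The THRB probe set 229657_at differed in sign between the states. Between DLC1-labelled and vector arrays its log2 difference was 0.32 with TGF-beta and -1.31 without it. It read 0.25 in the DLC1-labelled array and 0.20 in the vector array with TGF-beta, and 0.31 and 0.77 without it. The set used for the gene, 228716_at, also changed sign, at 0.52 with TGF-beta and -0.45 without it, within 2-fold in each. The difference between the states was not tested, since each rests on 1 array a group.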

How the results depend on the processing

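Of 7 differences of members past 2-fold, 6 stayed past 2-fold in the same direction under all 6 alternatives to the scale, filter or probe-set rule. Leaving out the filter or filtering on the mean cannot move the difference of a kept member, so those settings check nothing here. For NR3C2 and NR2F1, with a single probe set each, the mean of probe sets cannot move it either. THRB with TGF-beta in the vector arrays ranged from -2.0 to -1.33, NR3C2 there from -1.38 to -1.26, and NR4A2 from 1.16 to 1.44 with TGF-beta and 1.43 to 1.58 without it between DLC1-labelled and vector arrays. VDR in the DLC1-labelled arrays was the exception, at 0.57 as the mean of its probe sets, which left 0 members past 2-fold in that comparison, and at 0.87 with housekeeping centring. With that centring the count there was still 1, but the gene was THRB, which fell by 1.12. At 1.5-fold the members past the limit were 4 with TGF-beta in the DLC1-labelled arrays, 5 with it in the vector arrays, 5 between the untreated DLC1-labelled and vector arrays, and 3 for the difference of the responses. Housekeeping centring set each array by the gene at the middle of the 11 levels. This was ACTB in both DLC1-labelled arrays, PGK1 in the treated vector array and TFRC in the untreated one. The median of the 11 genes' own differences with TGF-beta was -0.03 in the DLC1-labelled arrays and 0.03 in the vector arrays. Between DLC1-labelled and vector arrays it was -0.10 with TGF-beta and -0.07 without it. Such centring, which follows single genes, also shifted the balance over all kept genes. With TGF-beta, where higher still outnumbered lower, it gave 64 higher and 36 lower in the DLC1-labelled arrays, against 104 and 14 as deposited, and 126 and 124 in the vector arrays, against 159 and 91. The balance turned between the untreated DLC1-labelled and vector arrays, at 272 higher and 244 lower against 214 and 307, and for the difference of the responses, at 16 and 28 against 25 and 23. Between the treated ones it was 192 and 210, against 192 and 216. Over all kept genes 1.5-fold gave 304 higher and 139 lower with TGF-beta in the DLC1-labelled arrays, 413 and 382 in the vector arrays, 777 and 881 between the treated DLC1-labelled and vector arrays, 767 and 1168 between the untreated ones, and 235 and 169 for the difference of the responses. That last count was 16 higher and 14 lower with 0.1 added to the values. NR3C2 between the treated DLC1-labelled and vector arrays ranged from 1.26 to 1.29 and NR2F1 from -1.04 to -1.01. The labels carry no replicate numbers to pair. The additive fit with limma, added after the data were seen, takes each effect as the same in either state. In it 0 of 27 members passed an adjusted p of 0.05 for TGF-beta, beside 0.327% of kept genes, and 5 for DLC1, beside 26.4%. Leaving out an array would leave a group empty. Dim values, rounded to 2 decimals, limit differences that rest on them.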

Other observations

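Of the 3 probe sets annotated to both NR1D1 and THRA, 204760_s_at read 0.58 with TGF-beta and 0.73 without it in the DLC1-labelled arrays, and 0.93 and 0.78 in the vector arrays, and 217476_at stayed between 0.24 and 0.30. The NR3C1 set 232431_at gave -0.45 with TGF-beta in the DLC1-labelled arrays and -0.11 in the vector arrays. Between DLC1-labelled and vector arrays it gave 0.27 with TGF-beta and 0.61 without it, the widest of the 5 sets of that gene in size in the untreated state.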
